A study of Rattus norvegicus with 4 samples.

Results

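The genes described here encode proteins of the myelin membrane and of the oligodendrocyte that builds it: Mal, Mog, Cldn11, Opalin, Ermn, Tspan2 and Bcas1. They were chosen by name, and all rows of the deposited table that carry one of these symbols were taken, which gave 9 of the 830 listed transcripts for the 7 genes. Other transcripts of these genes were not analysed here. Mal and Ermn each have a longer and a shorter listed model, and a gene's value below is that of its listed transcript with the most reads.

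RNA-seq of poly(A) RNA was performed on the hippocampus of adult male Wistar rats, to see which genes differ long after a chronic exposure to the SSRI fluoxetine, which blocks the reuptake of serotonin. Fluoxetine-exposed rats received 12 mg/kg per day by oral gavage from postnatal day (PND) 67 to 88, vehicle-exposed rats received 1% methylcellulose over the same days, and both groups were killed at PND 128, which was 40 days after dosing ended. Each sample pooled 2 rats and each group had 2 samples, so that 4 rats stand behind each group. The samples are called F1 and F2 (fluoxetine) and V1 and V2 (vehicle), by the numbers they carry in the deposited table. The tissue was punched from frozen slices, so a sample holds every cell type of the punch, and in such tissue fewer cells of a type and less RNA per cell cannot be told apart. The listed transcripts held from 138314 to 162734 reads per sample, between 1.03 and 1.17% of the library. Counting for each of the 7 genes only its transcript with the most reads, the genes held from 2.86 to 9.71% of those listed reads.

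Myelin is the stack of membrane that oligodendrocytes wrap around axons in the brain, and it speeds the conduction of action potentials. Its compact layers are held together by a small number of abundant membrane proteins, tight junctions seal the edges of the sheath, and a cytoskeleton of actin and microtubules shapes the processes that wrap the axon. In the hippocampus, myelin lies mainly in the fibre layers and in the white matter that borders them. The transcription factors Sox10 and Myrf switch on the genes of the mature oligodendrocyte, and many myelin genes carry binding sites for them.

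The sequence upstream of the genes is shown to give their genomic context, and no measurement of this study bears on it. RefSeq promoter sequence (build GRCr8) was at hand for 4 of the 7 genes, namely Mal, Cldn11, Opalin and Tspan2, and each line below gives the 250 bases before the annotated start, 5′ to 3′ on the strand of the gene. Capitals mark matches to 2 motifs searched on both strands, the Myrf motif CTGGCAC or CTGGTAC and the Sox motif ACAAAG or ACAATG.
Mal, chr3:135341424-135341673, minus strand: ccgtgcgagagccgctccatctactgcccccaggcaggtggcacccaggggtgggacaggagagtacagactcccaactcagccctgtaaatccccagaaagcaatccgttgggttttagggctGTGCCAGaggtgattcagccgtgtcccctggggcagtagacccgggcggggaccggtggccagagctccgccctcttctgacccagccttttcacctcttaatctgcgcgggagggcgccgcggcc
Cldn11, chr2:114149540-114149789, minus strand: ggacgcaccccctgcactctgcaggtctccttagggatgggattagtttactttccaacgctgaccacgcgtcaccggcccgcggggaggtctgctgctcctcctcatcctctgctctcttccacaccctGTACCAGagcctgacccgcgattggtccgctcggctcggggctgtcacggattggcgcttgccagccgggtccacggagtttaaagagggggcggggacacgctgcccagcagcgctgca
Opalin, chr1:249858191-249858440, minus strand: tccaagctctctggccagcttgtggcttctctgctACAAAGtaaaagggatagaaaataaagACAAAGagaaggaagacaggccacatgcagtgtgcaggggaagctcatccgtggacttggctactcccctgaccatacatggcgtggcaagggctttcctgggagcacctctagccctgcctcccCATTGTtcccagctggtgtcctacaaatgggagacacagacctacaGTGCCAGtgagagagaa
Tspan2, chr2:192866030-192866279, plus strand: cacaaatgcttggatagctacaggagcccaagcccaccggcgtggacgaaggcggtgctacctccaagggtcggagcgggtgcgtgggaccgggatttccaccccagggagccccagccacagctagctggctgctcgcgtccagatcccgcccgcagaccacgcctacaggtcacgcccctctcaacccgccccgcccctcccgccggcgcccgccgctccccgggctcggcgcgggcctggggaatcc

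The Myrf motif was found once each in Mal (first base at -126 from the start), Cldn11 (-120) and Opalin (-17), and not in Tspan2. Over all 33469 promoters of the same length, 5.48% held it. The Sox motif was found only in Opalin of these 4, at -215, -188 and -63, and in 25.3% of all promoters. The matches in Mal and Cldn11, the one in Opalin for Myrf and the Sox match at -63 were on the other strand, so they stand as the reverse complement. No match of one motif overlapped a match of the other, and a further motif, TATAAA, was in none of the 4 against 12.9% of all. GC content was 64.8% in Mal, 64.8% in Cldn11, 53.2% in Opalin and 72.0% in Tspan2, and the median over all promoters was 51.2%. A match is a stretch of letters and no measured binding, and these 4 sequences were not chosen at random, so the shares are a description.

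All 7 genes had a higher mean in fluoxetine-exposed rats, with log2 fold changes between 0.44 (Bcas1) and 0.88 (Mog) and a median of 0.56, a fold of 1.47. This direction is no independent evidence, because the deposited table holds only transcripts that had passed a p-value and fold change threshold for the same contrast in the same samples, 432 of them higher and 398 lower in fluoxetine. Those thresholds were applied to fold changes at the authors' own scaling, so the values here can lie below them. The median log2 fold change over all listed transcripts was 0.49, and over the higher ones 1.10, and each of the 7 genes lay below that value. None of the 7 genes passed an adjusted p of 0.05 in edgeR's quasi-likelihood test (adjusted p from 0.214 to 0.556), and neither did any other listed transcript (0.00% of 830). At an unadjusted p under 0.05, edgeR called 0 of the 7 genes, against 5.90% of the listed transcripts in the higher direction. DESeq2 called 0 of the 7 genes at either threshold (adjusted p from 0.315 to 0.43), and its background was 0.00% for adjusted p-values and 0.00% for unadjusted p-values in the higher direction. With 2 samples against 2, an exact permutation test cannot give a two-sided p under 0.33. Scaling, dispersion and adjustment came from the selected transcripts alone, with no unselected transcripts behind them. The edgeR and DESeq2 p-values are therefore descriptions, and they test neither a difference nor its absence in the 7 genes.

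Mal, a small proteolipid that sorts lipids and proteins to the myelin membrane, lies on the minus strand of chromosome 3 from 115166671 to 115190432 (build rn4). Its longer model has 4 exons and 2272 bases. Mal stood at 1694 normalized reads in F1, 5010 in F2, 1637 in V1 and 3226 in V2. F2 and V2 were high and F1 and V1 were low, and the groups overlapped. Mean reads were 3352 ± 2345 in fluoxetine against 2431 ± 1124 in vehicle (SD, n = 2 per group), a log2 fold change of 0.46 ± 0.72 (SE) with an edgeR adjusted p of 0.556. The shorter model of Mal, 674 bases in 2 exons from 115167928 to 115172500, stood at 373 normalized reads in F1, 1286 in F2, 451 in V1 and 768 in V2. Here F1 was the lowest of the 4 samples, below both vehicle samples.

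Cldn11, the claudin that forms the tight junction strands of the myelin sheath, lies on the minus strand of chromosome 2 from 116626427 to 116639732 in 3 exons with 1848 bases. Normalized reads of Cldn11 were 1992 in F1, 4604 in F2, 1367 in V1 and 3272 in V2. F1 stood below V2, so the groups overlapped. The means were 3298 ± 1847 and 2319 ± 1347 (SD, n = 2 per group), and the difference between them was smaller than either SD. The log2 fold change was 0.51 ± 0.70 (SE), with an edgeR adjusted p of 0.51.

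Opalin, a glycosylated transmembrane protein of the paranodal loops and the inner loop of the sheath, has 6 exons and 2694 bases on the minus strand of chromosome 1 from 246234646 to 246252295. Its normalized reads were 536 in F1, 1142 in F2, 313 in V1 and 828 in V2. The order of the samples was that of Cldn11, with overlapping groups. Opalin stood at 839 ± 429 in fluoxetine against 571 ± 365 in vehicle (SD, n = 2 per group), with a log2 fold change of 0.56 ± 0.70 (SE) and an edgeR adjusted p of 0.478.

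Mog, an immunoglobulin-like protein on the outermost surface of the myelin sheath, is listed with a short model of 2 exons and 503 bases on the plus strand of chromosome 20 from 1610126 to 1610963, which carries a human Ensembl accession. Mog stood at 56.6 normalized reads in F1 and 53.5 in F2 (57 and 60 reads as counted), and at 31.2 in V1 and 28.7 in V2 (29 and 27 reads). It was the only 1 of the 7 genes in which F1 and F2 both exceeded V1 and V2, while 30.6% of all listed transcripts did so. At DESeq2's size factors and at library totals it was again the only such gene of the 7, against 33.3 and 34.0% of all listed transcripts. Samples of the same group were close, at 55.1 ± 2.23 in fluoxetine and 29.9 ± 1.76 in vehicle (SD, n = 2 per group). The log2 fold change was 0.88 ± 0.45 (SE), with an edgeR p of 0.11 and an adjusted p of 0.214. Few reads stand behind these values: the ratio of 117 to 56 reads was 1.84 after normalization, with an exact binomial interval of 1.33 to 2.58 at 95% that covers counting error only. All values of Mog, here and below, are of that short model, the only Mog transcript listed. They need not be those of its rat transcripts.

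Ermn encodes ermin, an actin-binding protein of the oligodendrocyte cytoskeleton. Its longer model, 3559 bases in 3 exons on the minus strand of chromosome 3 from 39820749 to 39828184, stood at 614 normalized reads in F1, 1293 in F2, 452 in V1 and 744 in V2. Again F2 was highest, V1 lowest, and the groups overlapped. Means were 954 ± 480 against 598 ± 207 (SD, n = 2 per group), with a log2 fold change of 0.67 ± 0.59 (SE) and an edgeR adjusted p of 0.354.

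Tspan2, a tetraspanin of the oligodendrocyte membrane, spans 197861128 to 197902979 on the plus strand of chromosome 2 in 8 exons with 3828 bases. Its normalized reads were 492 in F1, 810 in F2, 325 in V1 and 495 in V2. V2 was barely above F1, and by that small margin the groups overlapped. The means were 651 ± 225 and 410 ± 120 (SD, n = 2 per group), with a log2 fold change of 0.67 ± 0.52 (SE) and an edgeR adjusted p of 0.312.

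Bcas1, a protein of oligodendrocytes that are forming myelin, is listed with a model of 594 bases in 3 exons on the minus strand of chromosome 3 from 161395824 to 161400087, which carries a mouse Ensembl accession. Normalized reads of Bcas1 were 354 in F1, 792 in F2, 297 in V1 and 546 in V2. The groups overlapped in the same order as for Ermn. Its means were 573 ± 310 and 421 ± 176 (SD, n = 2 per group), with the lowest log2 fold change of the 7 genes, 0.44 ± 0.62 (SE), and an edgeR adjusted p of 0.515.

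Levels of different genes were compared per length, as the deposited normalized expression (NE), in which reads are divided by transcript length and library size. Cldn11 had the highest mean NE over the 4 samples, 1.17, followed by Mal (0.978), Bcas1 (0.639), Opalin (0.201), Ermn (0.167), Tspan2 (0.105) and Mog (0.0632). Each gene stood above the next in 4 of 4 samples, except Opalin over Ermn, which held in 3 of 4. The range over samples of each gene still overlapped that of its neighbour in this order. The NE of Mog and Bcas1 comes from short models with accessions of another species and need not be that of the rat transcripts.

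**Figure D1:**
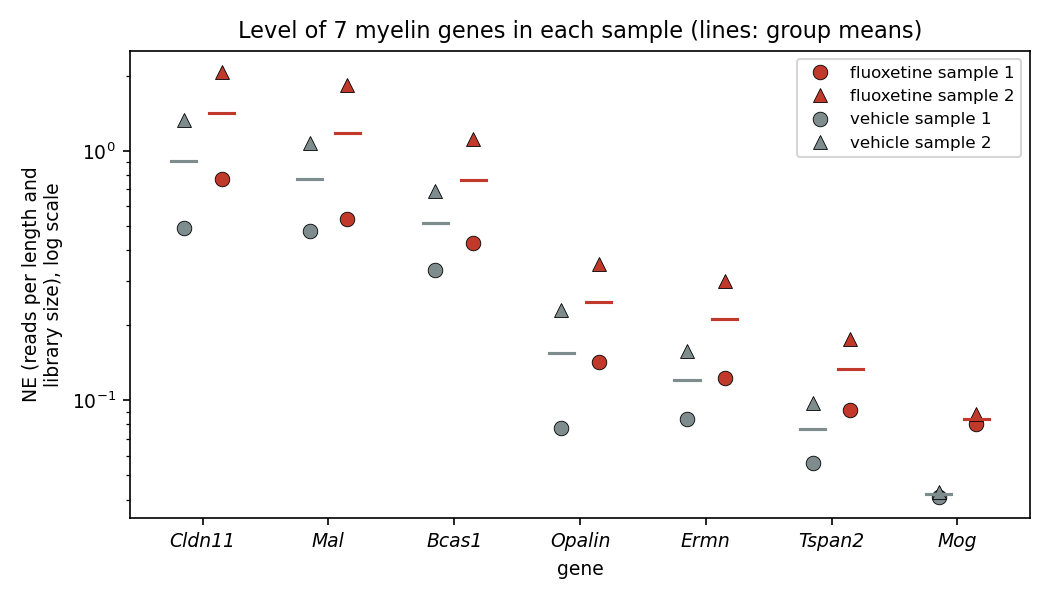
Level (NE, reads per length and library size, log axis) of each of the 7 genes in the 4 samples, with circles for sample 1, triangles for sample 2, grey for vehicle, red for fluoxetine and lines at the group means. In 6 genes both triangles lie above both circles, while in Mog the colours separate, at 0.0805 and 0.0883 in fluoxetine against 0.0411 and 0.0429 in vehicle.

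For 6 of the 7 genes the 4 samples fell in 1 order, with F2 highest, then V2, F1 and V1. The same 6 genes had more normalized reads in sample 2 than in sample 1 of both groups, a pattern found in 22.0% of all listed transcripts. The fold of F2 over F1 was 2.96 for Mal, 2.31 for Cldn11, 2.24 for Bcas1, 2.13 for Opalin, 2.11 for Ermn and 1.65 for Tspan2, against 0.944 for Mog. The fold of V2 over V1 was 1.97 for Mal, 2.39 for Cldn11, 1.84 for Bcas1, 2.65 for Opalin, 1.65 for Ermn and 1.52 for Tspan2, against 0.92 for Mog. The median of the 7 genes was therefore 2.13 within fluoxetine and 1.84 within vehicle, both larger than the median fold of 1.47 between the groups. Among the 291 listed transcripts with a mean of at least 50 normalized reads, the median folds were 0.762 and 0.95, and 86 transcripts (29.6%) were higher in sample 2 of both groups. The listed transcripts had been selected for the contrast between groups and not for a difference within them, but the genes were chosen with these values known, so the pattern is a description. For 5 of the 7 genes the difference between group means did not reach the SD of F1 and F2, and for 4 of them it reached neither group's SD.

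**Figure D2:**
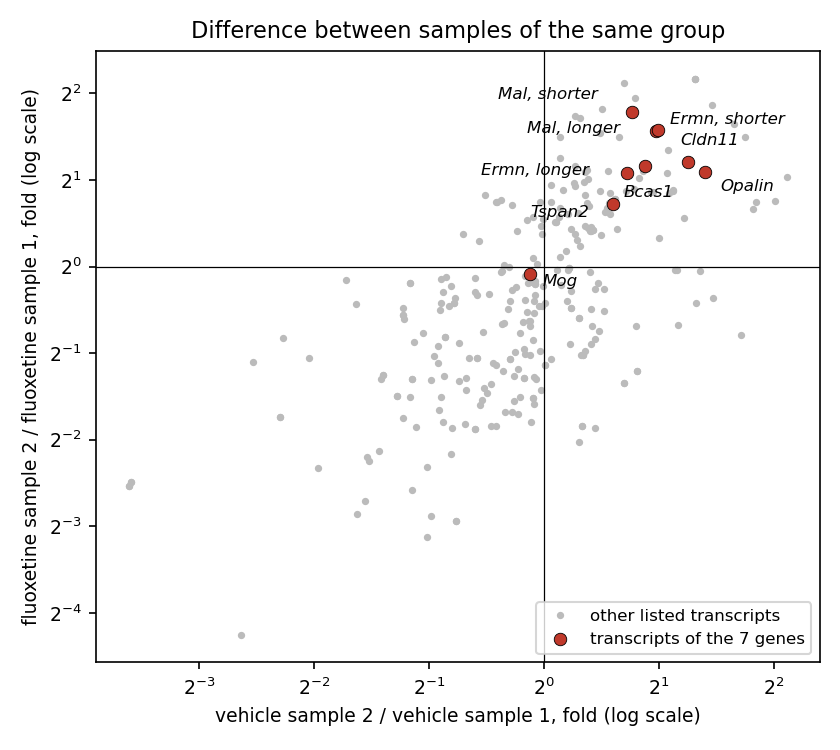
Fold between the samples of 1 group, vehicle sample 2 over 1 on the horizontal axis and fluoxetine sample 2 over 1 on the vertical axis (both log scales), for the 9 transcripts of the 7 genes (red) and the other listed transcripts with a mean of at least 50 normalized reads (grey). Mog lies near the crossing of the lines, at 0.92 and 0.944, and the other 8 red transcripts lie in the upper right, above 1 on both axes.

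Measured on the log2 scale against the mean profile of the 7 genes over the 4 samples, Ermn lay closest (distance 0.11), followed by Bcas1 (0.23), Tspan2 (0.24), Cldn11 (0.36), Opalin (0.43) and Mal (0.50). Mog lay farthest, at 1.03. Among 169 other genes with a mean of at least 50 normalized reads, the profile closest to that mean was of Lpar1, a receptor for lysophosphatidic acid, at a distance of 0.07. Lpar1 had 514 normalized reads in F1, 958 in F2, 371 in V1 and 638 in V2. LOC100366118 (0.11), Wscd1 (0.14), LOC691768 (0.17), Igfbp4 (0.20), an insulin-like growth factor binding protein, and Nkx6-2 (0.24), a homeobox transcription factor, came next. The groups overlapped in each of these 6 genes. Of them, Lpar1 and Nkx6-2 are in the list of other oligodendrocyte and myelin genes described below. The profiles rest on 4 samples and on a table selected for the contrast between groups.

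Leaving out 1 sample moved the fold changes of the 7 genes, and only Mog and Tspan2 stayed above 0 in every such fit. Without F2 the median log2 fold change of the 7 genes was -0.22, and the values were -0.65 for Mal, -0.38 for Bcas1, -0.35 for Cldn11, -0.22 for Opalin and -0.09 for Ermn, against 0.13 for Tspan2 and 0.79 for Mog. Without V1 the median was 0.07, with 0.01 for Cldn11, 0.02 for Opalin and 0.94 for Mog. Without F1 or V2 it was 0.99 and 1.21, and the log2 fold change of Mog stayed close to its value from all samples, at 0.84 and 0.89. In such fits the lone sample of a group was assumed to vary like the other group.

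**Figure D3:**
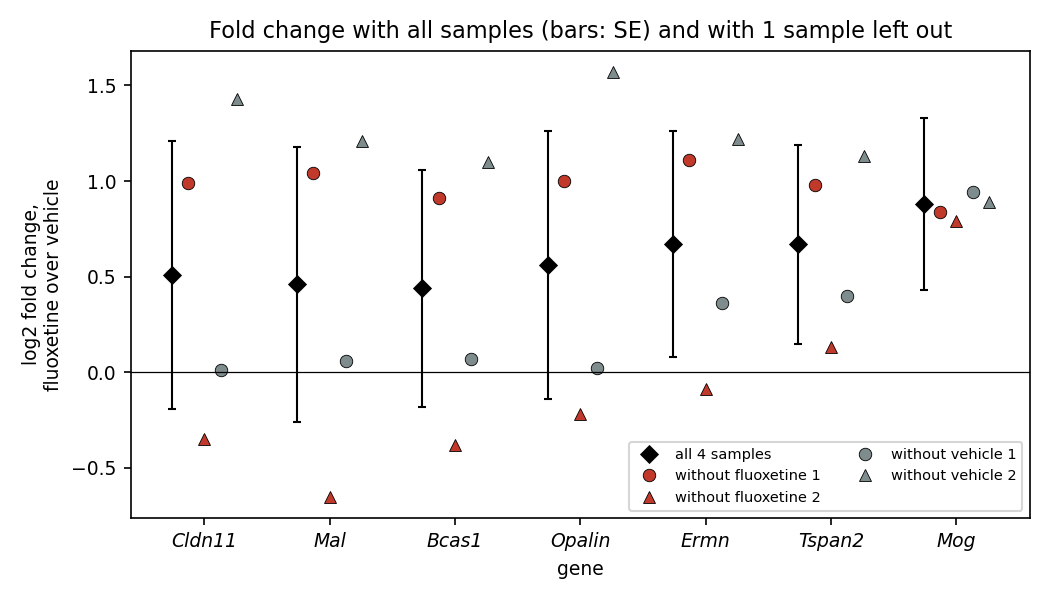
Log2 fold change (fluoxetine over vehicle) of each gene from edgeR with all 4 samples (black diamonds, bars are the SE) and with 1 sample left out (coloured symbols). The values of Mog stay between 0.79 and 0.94, whereas those of Mal run from -0.65 to 1.21.

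The 2 models of Ermn allowed a closer look at 1 gene. The shorter model, 1780 bases from 39822600 to 39828256, stood at 328 normalized reads in F1, 980 in F2, 303 in V1 and 602 in V2. Its log2 fold change was 0.53 ± 0.72 (SE), with an edgeR adjusted p of 0.504. By their coordinates and lengths, the longer model adds 1851 bases at the 3′ end (chromosome 3, 39820749 to 39822599) and lacks 72 bases at the 5′ end. The reads of the longer model minus those of the shorter one were 288 in F1, 351 in F2, 139 in V1 and 134 in V2, or 286, 313, 149 and 142 normalized reads. In this difference the samples of a group were close (300.0 ± 18.9 against 146 ± 4.99, SD, n = 2 per group), with a fold of 2.05 between the group means, while the shorter model differed 2.99-fold between the fluoxetine samples and 1.99-fold between the vehicle samples. The difference made up 46.6 and 24.2% of the reads of the longer model in F1 and F2, and 33.0 and 19.1% in V1 and V2. This split was chosen after its values were seen and carries no test. Use of strand in the counting is not stated in the paper or the labels, so reads from a gene on the other strand cannot be told apart from those of Ermn. For Mal, the longer minus the shorter model gave 1322 and 3724 normalized reads in fluoxetine and 1185 and 2458 in vehicle, which kept the order of the longer model, and between 72.4 and 78.0% of its reads.

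**Figure D4:**
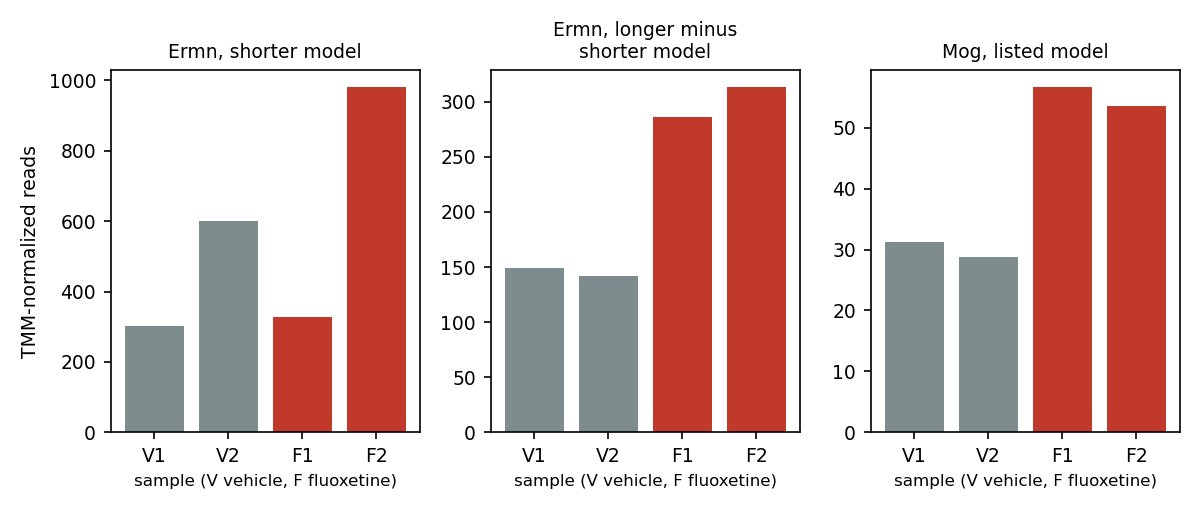
TMM-normalized reads in each sample (V vehicle, F fluoxetine) for the shorter model of Ermn, for the longer minus the shorter model of Ermn, and for the listed model of Mog, each on its own axis from 0. The shorter model is highest in F2 (980) and V2 (602), and in the other panels both fluoxetine samples stand above both vehicle samples.

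Other genes of oligodendrocytes and myelin were looked up from a list of 41 genes, of which 7 are in the table, all 7 higher in fluoxetine by their means and 0 past an unadjusted p of 0.05 in edgeR (adjusted p from 0.249 to 0.431). Their median log2 fold change was 0.54. Lpar1, whose values are given above, is among them. Olig1, which encodes a lineage factor of oligodendrocytes, stood at 1197 normalized reads in F1 and 1596 in F2, and at 868 in V1 and 1150 in V2, with no overlap between groups. Sirt2, a deacetylase abundant in myelin, had 1165 and 931 against 802 and 762, also with no overlap, and like Mog it was lower in F2 than in F1 and in V2 than in V1. Klk6, a protease of mature oligodendrocytes, had 155 and 286 against 83.8 and 183, and Nkx6-2 had 199 and 429 against 176 and 260, both with overlap. In all, 6 of the 7 were higher in sample 2 of both groups, against 22.0% of all listed transcripts. At the TMM scaling 3 of the 7 had no overlap (Olig1, Sirt2 and Fa2h), near the share of 30.6% over the table. Fa2h is an enzyme of myelin lipid synthesis that was named after its values were seen, with 47.7 and 87.4 normalized reads against 21.5 and 46.7. Of 10 genes of oligodendrocyte precursors 1 is in the table, the proteoglycan Cspg4, with 4 and 1 reads in fluoxetine and 12 and 11 in vehicle.

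Markers of other cells and regions that the punch could hold also differed between samples. Of 6 CA1 pyramidal cell markers 3 are listed (Wfs1, Pou3f1 and Nov), and their summed normalized reads were 5442 in F1 and 11362 in F2, against 5106 in V1 and 6637 in V2. Of the markers of neocortex and subiculum, Nts had 215 normalized reads in F1, 606 in F2, 114 in V1 and 383 in V2, and Cplx3 had 55.7, 175, 33.3 and 105. The 3 CA1 genes, Nts and Cplx3 were each higher in sample 2 of both groups, as 6 of the 7 myelin genes were. The thalamus marker Prkcd (1 of 10 listed) had 157 and 77.6 normalized reads in fluoxetine and 231 and 293 in vehicle, and Cpne4 (1 of 7 CA2 and CA3 markers) had 303 and 232 against 503 and 448. Of 8 interneuron markers Sst is listed, at 3577 and 2138 against 1638 and 2290, and of 5 red blood cell markers Hbb and Hba-a2, whose sums were 620.0 and 472 against 700.0 and 1844. Of 10 choroid plexus and ependyma markers Kl, Clic6 and Tekt2 are listed, with sums of at most 15.9 and 0 reads for each in at least 1 sample, and of 12 microglia markers Il1b, with 6 reads in V1 and 0 in the others. None of 13 astrocyte markers, 11 endothelial and mural markers and 6 dentate gyrus markers is in the table, so their levels were not analysed here. The part that the makeup of the punches had in the values of the 7 genes was not tested.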

How the data were processed

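Tags of 36 bp were read from one end on a Genome Analyzer IIx by the authors, who aligned them to rn4 (the build named in the submitters' processing notes) with 1 mismatch allowed, and kept tags with a single position. The deposited count is the authors' tally of exonic tags per transcript, from Genomatix software, without normalization. The deposited NE is the authors' signal, a read density per transcript length and library size. Further columns hold the authors' fold change, p-values, means and SDs and were not used. Only transcripts past the authors' p-value and fold change thresholds are listed. Columns named treatment or control, with a number, were taken as the fluoxetine or vehicle sample of that number.

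TMM factors were computed over the 830 listed transcripts, and groups were compared with edgeR 4.0.16 in R 4.3.3 (glmQLFit and glmQLFTest, no filter, treatment as the only term, two-sided), with Benjamini-Hochberg adjustment over the whole table. The common dispersion came to 0.268. DESeq2 1.42.0, other scalings, a filter on low counts and fits without 1 sample were alternatives. The fit was also run on simulated counts with known folds. Its recovery of them was required only at a dispersion far below 0.268, so this was no check at the noise of these data. No member shares all its counts with another transcript. Of the 830 listed transcripts, 263 share all their counts with another listed transcript. Shares over listed transcripts can therefore count the same reads more than once, while each of the 7 genes was counted by a single transcript. The text names all 7 genes, up to 6 genes with the closest profile (pseudocount 0.5 on the log2 scale) and up to 5 genes with the most reads per marker list. Some list members are not reported here. Members and lists were chosen with earlier results of these data known. Promoter sequences are RefSeq's. Tallies and figures used scipy 1.17.1, numpy 2.4.6 and matplotlib 3.10.9 under Python 3.11.15, with pandas 2.3.3. Reads carry no molecular identifiers, so counting intervals understate the error, and with 2 pools per group the spread is poorly known.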

Additional observations from a re-analysis of the deposited data

How the results depend on the processing

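Of 77 log2 fold changes of the 7 genes under other settings, 72 kept their direction, and the 5 that reversed were all without fluoxetine sample 2: Mal -0.65, Bcas1 -0.38, Cldn11 -0.35, Opalin -0.22 and Ermn -0.09. The highest values were all without vehicle sample 2 (Opalin 1.57, Cldn11 1.43, Ermn 1.22, Mal 1.21, Tspan2 1.13 and Bcas1 1.10) except for Mog. The median of the 7 genes ran from -0.22 to 1.21 with 1 sample left out. It was 0.63 at DESeq2's size factors, 0.68 at library totals and 0.67 with a filter on low counts. From NE, taken as the difference between the group means of log2 NE and not from edgeR, the median was 0.74. With 1 sample left out, when 1 sample against 2 separates more easily, the count of genes with no overlap ran from 1 to 7: 7 without fluoxetine sample 1 (39.2% of the listed transcripts), 6 without vehicle sample 2 (38.4%), and 1 without fluoxetine sample 2 (41.8%) or vehicle sample 1 (40.8%). It was 0 without Mog, an alternative chosen after seeing the data. The count of genes past an adjusted or unadjusted p of 0.05 was 0 under every setting run. Relative to TMM, the median of all listed transcripts was higher by 0.07 at DESeq2's size factors and by 0.11 at library totals, and the unadjusted calls over the table were 49 higher and 147 lower with TMM, 49 and 93 with DESeq2's size factors, and 60 and 74 with library totals. A fit with the sample number as a further term (replicate block) gave a median of 0.62 and changed no call among the 7 genes. The SE of each of the 7 genes was smaller in it, from 0.70 to 0.26 for Cldn11, 0.72 to 0.28 for Mal and 0.45 to 0.39 for Mog. Its lowest unadjusted edgeR p-values were 0.0602 (Mog) and 0.0886 (Cldn11), against 0.11 and 0.503 without the block. The block fit leaves 1 residual degree of freedom, so its smaller SEs and p-values are poorly supported. Samples of different groups share only a number, and whether it marks a pairing is not known: over the 291 transcripts with at least 50 normalized reads, the log2 ratios of sample 2 over 1 in the 2 groups had r = 0.66, a description across transcripts, which are not independent. Depth limits Mog most, at 27 to 60 reads per sample.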
